A study of Mus musculus with 9 samples.

Results

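Imprinted growth-control genes, 10 in number, were followed by symbol through the expression table of sorted bone marrow stem and progenitor cells: H19, Igf2, Meg3, Cdkn1c, Grb10, Peg3, Plagl1, Ndn, Igf2r and Impact. All 10 symbols were found once each among the 38215 genes of the table, and 6 of the 10 had enough counts to be tested. The cells came from 9 C57BL/6J mice. They were sorted from bone marrow as LSK cells (lineage-negative, Sca1-positive and Kit-positive, the fraction that holds blood stem cells and multipotent progenitors) that were positive for both GFP and mCherry. Every mouse carried Jak2V617F, an activating mutation of the kinase Jak2 found in myeloproliferative neoplasms, and every mouse had received tamoxifen. EV is left unexplained in the labels: the 5 mice with this title had Jak2V617F as their whole genotype. The 4 others had the genotype Jak2V617F-sgZrsr2 and are described by the series as having lost Zrsr2, a splicing factor for the rare U12-type introns. No mouse lacked the Jak2 mutation, the labels give no age, and the promoter or vector behind each construct is not given in the sources used here. The transcript of Zrsr2 was still present in the sgZrsr2 libraries, at 31.7 to 44.4 CPM against 50.6 to 62.2 CPM in the EV libraries (counts per 1000000 counts, scaled between libraries with TMM factors). These groups did not overlap, and the log2 fold change of -0.46 (SE 0.12) missed the adjusted threshold (edgeR adjusted p = 0.714; exact permutation p = 0.0159). Mouse numbers mark the samples as separate, and the p-values measure the spread between them, part of which may be technical.

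An imprinted gene is expressed mainly from the copy of one parent, because a methylation mark set in the egg or sperm is kept on one allele through life. H19, Meg3, Cdkn1c, Grb10 and Igf2r are mostly expressed from the maternal copy in mouse tissues, and Igf2, Peg3, Plagl1, Ndn and Impact from the paternal copy. Many of them restrain or promote growth in the fetus, and several are known from long-lived blood stem cells, where they have been tied to quiescence. The values here are sums over both copies, so they do not show which parental allele was read.

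Libraries held 23238264 to 45585531 expected counts. The LSK label was checked against its defining genes: Kit was at 247 to 632 CPM, Cd34 at 544 to 705 CPM, Flt3 at 227 to 504 CPM and Ly6a, which encodes Sca1, at 14.8 to 49.3 CPM. Of the markers of mature cells, Cd3e had no count in 8 libraries and Ly6g none in 6. EV mouse 5 and mice 3 and 5 of the sgZrsr2 group stood apart from the other 6 libraries: Car1, an early erythroid gene, stood at 25.4, 39.3 and 35.5 CPM in them and at 0 to 0.422 CPM elsewhere. EV mouse 5 and sgZrsr2 mouse 3 also had the most transcript of mature granulocyte genes, with S100a9 at 49.5 and 56.9 CPM against 2.23 to 13.7 CPM in the other 7. In bulk samples, fewer cells of a type and less RNA per cell cannot be told apart.

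The 10 genes spanned the range from near silence to steady expression. Per kilobase of exon, the median level over the 9 libraries was 6.61 CPM per kb for Impact, 1.71 for Cdkn1c, 0.909 for Grb10, 0.453 for Ndn, 0.356 for Igf2r, 0.0434 for Meg3, 0.0249 for Plagl1 and 0.0101 for Igf2, and it was 0 for H19 and Peg3. Exon lengths were taken from GENCODE M21, except for Ndn, where the shorter span of the deposited table was used, so this order is approximate. The lowest library of Impact (5.68 CPM per kb) lay above the highest of Cdkn1c (3.27). The lowest library of Igf2r (0.167) likewise lay above the highest of Meg3 (0.155), and each of the other pairs of neighbours in the order overlapped in the ranges of its libraries. The plot of all 10 genes by library shows the levels in each mouse.

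**Figure D1:**
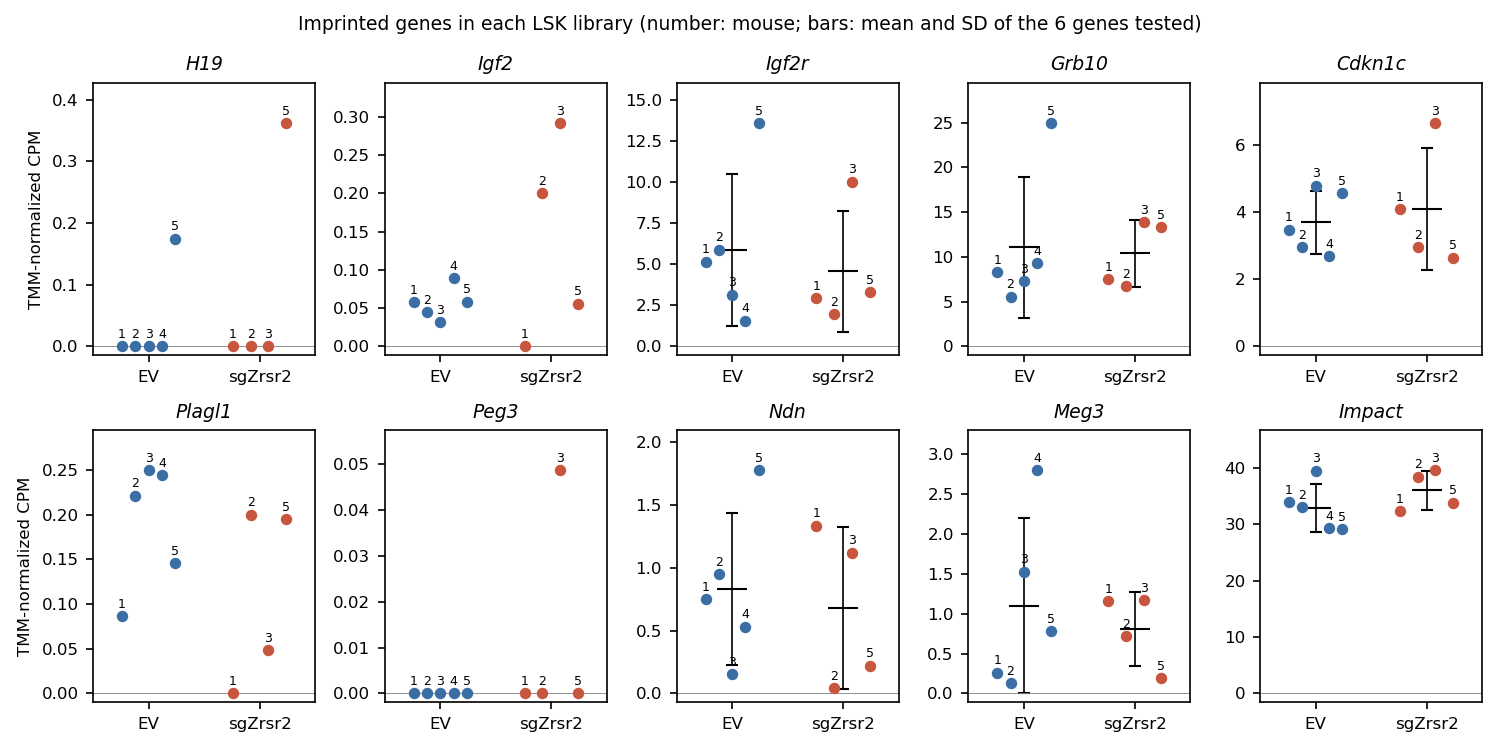
Each panel shows one imprinted gene, with TMM-normalized CPM on a linear axis, 1 point per library labelled with the mouse number (EV blue, sgZrsr2 red), and for the 6 tested genes the mean and SD of each group. The groups overlap in every panel: Grb10 and Igf2r are highest in EV mouse 5, Impact stays between 29.1 and 39.6 CPM, and H19 has counts in 2 libraries only.

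Between the libraries labelled sgZrsr2 and those labelled EV, no change was detected in any of the 6 tested genes, and the other 4 were too low to test. Of the 6 tested genes, 0 had an edgeR quasi-likelihood p that fell under 0.05 after Benjamini-Hochberg adjustment (smallest adjusted p 0.805, Impact), and 0% of the 14944 genes tested did. At an unadjusted p under 0.05 there were 0 of the 6, against 6.85% of all genes (3.87% higher and 2.98% lower). The DESeq2 Wald test called 16 of all genes and 0 of the 6. In 0 of the 10 did the groups stay apart in CPM, against 3.06% of all genes tested. The fold change was below 0 for Igf2r, Grb10, Ndn and Meg3 and above 0 for Cdkn1c and Impact, with a median of -0.19 on the log2 scale over the 6 and -0.01 over all genes. How much the design could have shown differed between the genes, since the 95% interval of the fold change ran from 0.901 to 1.33 for Impact but from 0.211 to 2.54 for Meg3.

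**Figure D2:**
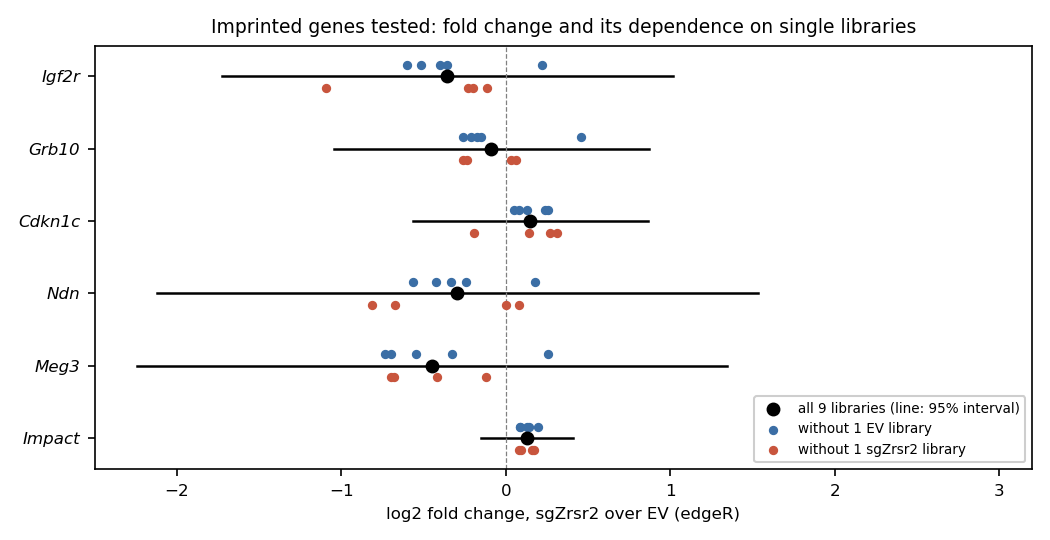
Log2 fold changes of sgZrsr2 over EV for the 6 imprinted genes with enough counts (black points, with the 95% interval as a line), and the values when each EV library (blue) or sgZrsr2 library (red) was left out. All 6 intervals include 0, and only for Impact does every left-out library keep the sign.

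The first set of genes belongs to insulin-like growth factor signalling: a ligand, the RNA gene beside it, a receptor that removes the ligand and an inhibitor of the signalling receptors. Igf2 (ENSMUSG00000048583; GRCm38 chromosome 7, 142650766 to 142666816, minus strand) encodes the fetal growth factor IGF2. It had 2, 2, 1, 4 and 2 counts in EV mice 1 to 5 and 0, 5, 12 and 2 counts in sgZrsr2 mice 1, 2, 3 and 5. The highest library, sgZrsr2 mouse 3, stood at 0.292 CPM, and Igf2 was too low to be tested. An exact permutation test of CPM over every split of the 9 libraries into 5 and 4, two-sided as are all such tests here, gave p = 0.302. The smallest p this test can give is 0.0159.

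H19 (ENSMUSG00000000031; chromosome 7, 142575529 to 142578143, minus strand) lies 72.6 kb from Igf2 and makes a long non-coding RNA that is read from the maternal copy, opposite to Igf2. It had 6 counts in EV mouse 5 and 13 in sgZrsr2 mouse 5, and no count in the other 7 libraries. At 3 counts, the limit that a count of 0 allows was 0.0658 to 0.129 CPM in these libraries. Both libraries with counts were among the 3 with Car1, and sgZrsr2 mouse 3, the third of them, had none. The 13 counts of sgZrsr2 mouse 5 correspond to 0.378 CPM of its library total (exact Clopper-Pearson 95% interval 0.201 to 0.646, which covers counting error only), above the limit in each library without counts. H19 is also the precursor of a microRNA, and the mature sequences are shown because H19 was the gene read in 2 libraries alone. They are given 5′ to 3′ from RefSeq (GRCm38.p6), with bases 2 to 8, the seed that pairs with targets, in capitals.
mmu-miR-675-5p: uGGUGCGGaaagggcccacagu
mmu-miR-675-3p: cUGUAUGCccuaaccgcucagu
The 5p arm lies at chr7:142577112-142577133 and the 3p arm at chr7:142577078-142577099, both on the minus strand within H19, and the 2 seeds differ. The table's own row for this microRNA gene, Mir675, had no count in any library, and polyadenylated libraries do not measure mature microRNAs.

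Igf2r (ENSMUSG00000023830; chromosome 17, 12682406 to 12769664, minus strand) encodes the receptor that takes IGF2 up for breakdown and also carries lysosomal enzymes. It stood at 5.15, 5.88, 3.15, 1.55 and 13.6 CPM in EV mice 1 to 5, and the values of sgZrsr2 mice 1, 2, 3 and 5 were 2.94, 1.96, 10.02 and 3.31 CPM. EV mouse 5 and sgZrsr2 mouse 3 were far above the rest, and the groups overlapped over most of their range. The means were 5.86 ± 4.64 CPM (SD, n = 5) with EV and 4.56 ± 3.69 CPM (SD, n = 4) with sgZrsr2 (exact permutation p = 0.683). The log2 fold change was -0.36 (SE 0.62; edgeR adjusted p = 0.893). One library decided its size and sign: leaving out EV mouse 5 gave 0.22 and leaving out sgZrsr2 mouse 3 gave -1.10. The antisense RNA Airn, which silences Igf2r on the paternal copy, overlaps it and had 0 to 9 counts per library.

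Grb10 (ENSMUSG00000020176; chromosome 11, 11930508 to 12038683, minus strand) encodes an adaptor that binds the insulin and IGF1 receptors and dampens their signal. It stood at 8.26, 5.55, 7.26, 9.26 and 25.0 CPM in EV mice 1 to 5, and the values of sgZrsr2 mice 1, 2, 3 and 5 were 7.52, 6.72, 13.9 and 13.4 CPM. The 3 libraries with Car1 were the 3 highest, and the other 6 lay between 5.55 and 9.26 CPM whatever their group. The means were 11.1 ± 7.89 CPM (SD, n = 5) and 10.4 ± 3.78 CPM (SD, n = 4; exact permutation p = 0.968). The log2 fold change was -0.09 (SE 0.43; edgeR adjusted p = 0.965), and 0.46 without EV mouse 5. When those 3 libraries were left out it was -0.08.

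RefSeq gives 2 start sites of Grb10 in its table of promoters. The 250 bases before each are shown because the counts sum over both and cannot be assigned to one of them. Each CG dinucleotide, the site of DNA methylation, is in capitals (GRCm38.p6, minus strand, 5′ to 3′).
Grb10 start 1, chr11:12037421-12037670: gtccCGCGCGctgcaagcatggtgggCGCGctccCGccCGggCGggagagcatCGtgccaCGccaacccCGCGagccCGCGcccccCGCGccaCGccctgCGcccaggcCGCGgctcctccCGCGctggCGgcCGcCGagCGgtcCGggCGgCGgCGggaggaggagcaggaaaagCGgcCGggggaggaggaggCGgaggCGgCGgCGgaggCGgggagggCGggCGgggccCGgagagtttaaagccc
Grb10 start 2, chr11:12027972-12028221: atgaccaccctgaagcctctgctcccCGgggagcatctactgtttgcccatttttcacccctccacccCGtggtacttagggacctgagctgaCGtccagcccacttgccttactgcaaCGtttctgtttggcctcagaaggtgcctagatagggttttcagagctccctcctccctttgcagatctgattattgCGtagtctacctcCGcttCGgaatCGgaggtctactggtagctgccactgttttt
The first window holds 40 CG dinucleotides and the second 8. Of the 32851 windows of this length in the table, 98.7% hold fewer than 40 and the median is 6. The single window of Igf2r holds 27, more than 91.4% of all windows.

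Some markers of other cells were high in the libraries where Grb10 or Igf2r was high. The 8 erythroid genes found of 10 listed summed to 282, 426 and 286 CPM in EV mouse 5 and in mice 3 and 5 of the sgZrsr2 group, where Grb10 was highest, and to 98.1 to 200 CPM in the other 6. The 8 listed megakaryocyte genes summed to 337, 435 and 533 CPM in these 3 libraries and to 154 to 315 CPM in the others. Within that list Vwf stood at 53.2, 91.1 and 85.3 CPM in the 3 libraries against 4.65 to 11.4 CPM in the other 6, and Pf4 at 22.02, 27.9 and 37.4 CPM against 0.979 to 3.43 CPM. Gp1bb and Gp9 were also highest there, at 6.02 to 10.2 CPM and 5.29 to 6.73 CPM, while Gp6 reached 0.0291 CPM at most. Itgb3 was highest there too, at 51.3 to 79.9 CPM. Itga2b, the largest part of the sum, was not. It stood at 263 CPM in EV mouse 4 and 235 CPM in sgZrsr2 mouse 1. EV mouse 5 (199 CPM) and sgZrsr2 mouse 3 (222 CPM) were lower. Ppbp in sgZrsr2 mouse 1 (0.935 CPM) was above EV mouse 5 (0.727 CPM) and sgZrsr2 mouse 3 (0.851 CPM). Igf2r did not follow the erythroid genes in sgZrsr2 mouse 5, where it was at 3.31 CPM. Its 2 highest libraries were those with the most transcript of Ngp, Ltf, Camp, S100a8 and S100a9, mature granulocyte genes that summed to 158 and 188 CPM there and to 5.57 to 49.98 CPM elsewhere. These 5 were taken from the neutrophil list after their values were seen; the whole list of 8 summed to 2205 to 2994 CPM with EV and 2725 to 3939 CPM with sgZrsr2, most of it Mpo, and Ly6g was at or near 0. The 12 genes of long-term stem cells, among them Hlf, Procr and Fgd5, had their highest sums in EV mouse 5 (856 CPM) and sgZrsr2 mouse 3 (1076 CPM) as well. The part of these cells in the levels of Grb10 and Igf2r was not tested.

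**Figure D3:**
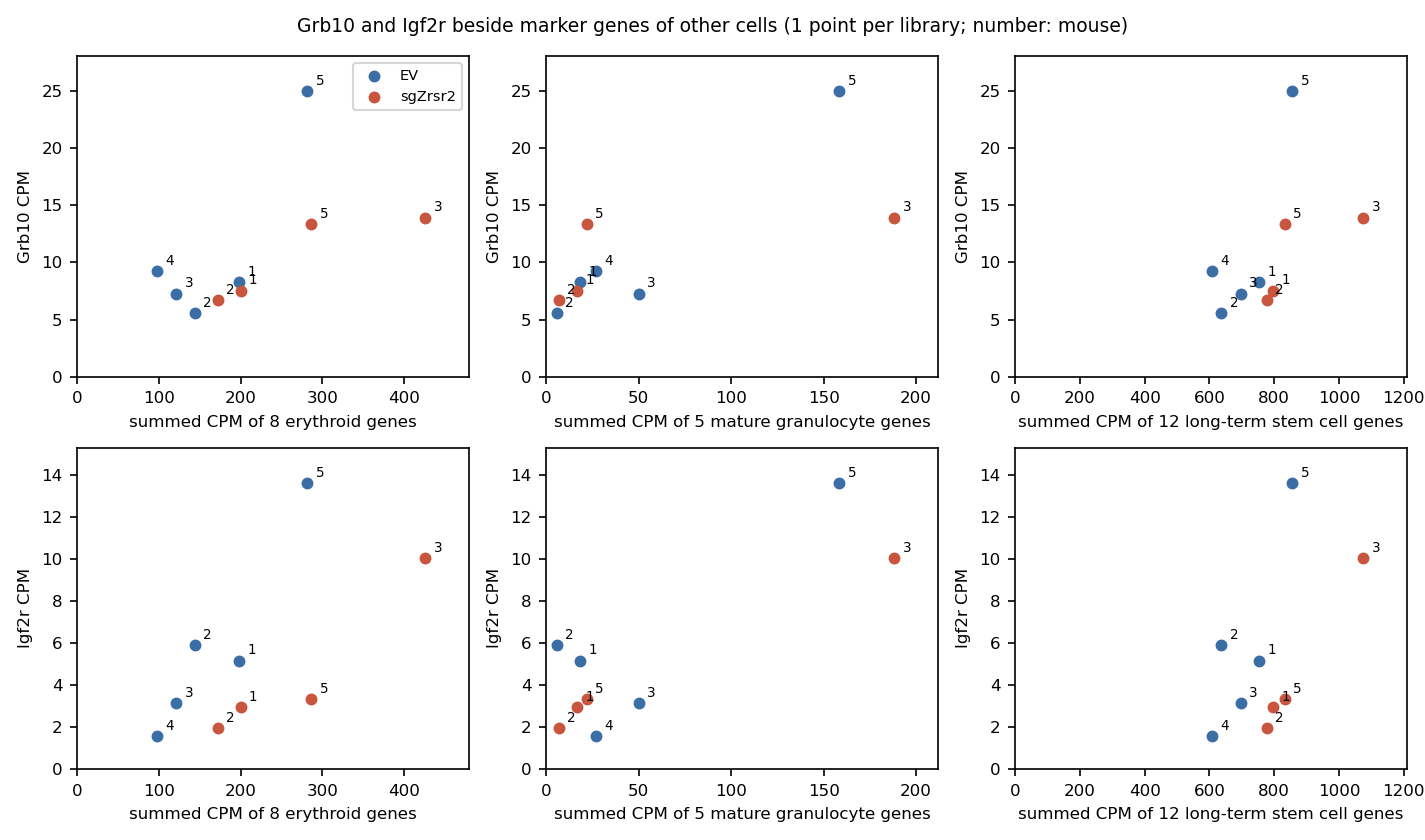
Grb10 (top row) and Igf2r (bottom row) in CPM against the summed CPM of 8 erythroid, 5 mature granulocyte and 12 long-term stem cell genes, 1 point per library with the mouse number (EV blue, sgZrsr2 red). Grb10 is high in EV mouse 5 and sgZrsr2 mice 3 and 5, while Igf2r is high in EV mouse 5 and sgZrsr2 mouse 3 only.

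Likeness was described for Grb10 and Impact, whose mean was not under 10 CPM. The genes outside the set whose log2 CPM followed Grb10 most closely over the 9 libraries were AW555464, Clstn1 and Pon3 (Pearson r 0.948, 0.946 and 0.944). Over the 6 libraries without Car1 the same correlations were 0.518, 0.869 and 0.750. They describe libraries that share their preparation and depth, and the first set of values rests partly on 3 libraries that stand apart. The genes were picked for the highest r among all genes tested, so high values are partly a product of the choice. The 6 libraries are part of the 9 used to pick them, so neither set of values tests a likeness.

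Insr and Igf1r carry the IGF2 and insulin signal into the cell. Insr, the insulin receptor, stood at 66.6, 58.8, 43.2, 45.2 and 60.3 CPM in EV mice 1 to 5, and the values of sgZrsr2 mice 1, 2, 3 and 5 were 74.3, 70.5, 88.3 and 72.2 CPM. Igf1r, the IGF1 receptor, was at 54.5, 47.5, 55.4, 49.0 and 57.7 CPM and at 58.7, 60.6, 71.1 and 88.2 CPM in the same order. In both, every sgZrsr2 library was above every EV library, with log2 fold changes of 0.48 (SE 0.14) and 0.40 (SE 0.13). These 2 were named for the smallest unadjusted p of their pathway list in this same comparison, so the separation is no further support. Both failed the adjusted threshold of edgeR's test (adjusted p = 0.714 for each; exact permutation p = 0.0159 for each). For Igf1r the order depends on the scaling: by library totals EV mouse 5 was at 60.2 CPM, above sgZrsr2 mice 1 and 2 at 56.8 and 58.6 CPM, and the groups overlapped. The log2 fold change of Igf1r was 0.27 without sgZrsr2 mouse 5, and 0.22 without the 3 libraries with Car1. Of the 15 genes of the pathway list 6 were tested: 2 were at an unadjusted p under 0.05, both higher (3.87% of all genes were), and the groups of those 2 did not overlap (3.06% of all genes had groups apart). Irs2, which relays the signal inside the cell, was at 107 CPM in EV mouse 3 and at 22.7 to 36.1 CPM in the other 8 libraries (edgeR adjusted p = 0.720). Igf1, the related ligand, had fewer counts than the filter asks for, like Igf2.

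The second role is the brake on the cell cycle. Cdkn1c (ENSMUSG00000037664; chromosome 7, 143458350 to 143461050, minus strand) encodes p57, an inhibitor of cyclin-dependent kinases that helps keep blood stem cells quiescent. It stood at 3.48, 2.96, 4.80, 2.69 and 4.57 CPM in EV mice 1 to 5, and the values of sgZrsr2 mice 1, 2, 3 and 5 were 4.10, 2.96, 6.67 and 2.64 CPM. sgZrsr2 mouse 3 was the highest library, and the other 3 of its group lay within the EV range or just under it. The means were 3.70 ± 0.947 CPM (SD, n = 5) and 4.09 ± 1.83 CPM (SD, n = 4; exact permutation p = 0.762). The log2 fold change was 0.15 (SE 0.32; edgeR adjusted p = 0.914) and -0.20 without sgZrsr2 mouse 3. That library also had the highest sum of the 12 long-term stem cell genes (1076 CPM). The other libraries did not keep this order. EV mouse 3, next highest in Cdkn1c, had a sum of 697 CPM, and sgZrsr2 mouse 5, lowest in Cdkn1c, had 832 CPM. Whether Cdkn1c and these genes are related was not tested.

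Plagl1, Peg3 and Ndn are paternally expressed genes of nuclear growth regulators, and the first 2 were too low to be tested. Plagl1 (ENSMUSG00000019817; chromosome 10, 13090691 to 13131694, plus strand), a zinc finger transcription factor, had 3, 10, 8, 11 and 5 counts in EV mice 1 to 5 and 0, 5, 2 and 7 counts in sgZrsr2 mice 1, 2, 3 and 5. Its highest value was 0.249 CPM, and its groups overlapped (exact permutation p = 0.206). Peg3 (ENSMUSG00000002265; chromosome 7, 6703892 to 6730421, minus strand), another zinc finger protein, had 2 counts in sgZrsr2 mouse 3 and none in the other 8 libraries. Its neighbours Zim1 and Usp29 had no count in any library.

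Ndn (ENSMUSG00000033585; chromosome 7, 62348277 to 62349928, plus strand) encodes necdin, a growth suppressor that binds E2F1 and p53. It stood at 0.749, 0.950, 0.156, 0.533 and 1.77 CPM in EV mice 1 to 5, and the values of sgZrsr2 mice 1, 2, 3 and 5 were 1.34, 0.0400, 1.12 and 0.223 CPM. High and low libraries were found in both groups, on 1 to 61 counts per library. The means were 0.832 ± 0.603 CPM (SD, n = 5) and 0.679 ± 0.643 CPM (SD, n = 4; exact permutation p = 0.730), and the log2 fold change was -0.29 (SE 0.83; edgeR adjusted p = 0.932). The sign turned when a library was left out: without EV mouse 5 the value was 0.18, and without sgZrsr2 mouse 2 it was 0.08.

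sgZrsr2 mice 1 and 2 had the lowest chi-square over degrees of freedom, 9.32 over the genes tested, against 16.6 to 164 for the other pairs within a group. This value rises with depth, and these were the 2 shallowest libraries (23238264 and 25857723 expected counts). Ndn had 30 counts in mouse 1 and 1 count in mouse 2. By library totals this is 1.29 CPM (exact 95% interval 0.871 to 1.84) against 0.0387 CPM (0.000979 to 0.215). Grb10 in the same pair had 169 and 168 counts. The 2 libraries thus differed in Ndn by more than counting error, while their Grb10 intervals (6.22 to 8.46 and 5.55 to 7.56 CPM) overlapped.

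Meg3 (ENSMUSG00000021268; chromosome 12, 109541001 to 109571726, plus strand) is a maternally expressed long non-coding RNA at the start of a long array of microRNA and small nucleolar RNA genes, and its locus is known for a part in keeping long-term stem cells. It stood at 0.259, 0.133, 1.53, 2.80 and 0.785 CPM in EV mice 1 to 5, and the values of sgZrsr2 mice 1, 2, 3 and 5 were 1.16, 0.720, 1.17 and 0.195 CPM. EV mouse 4 was highest and EV mouse 2 lowest, so the EV group alone spanned the whole range. The means were 1.10 ± 1.10 CPM (SD, n = 5) and 0.810 ± 0.460 CPM (SD, n = 4; exact permutation p = 0.714). The log2 fold change was -0.45 (SE 0.81; edgeR adjusted p = 0.898). It was 0.26 without EV mouse 4, and limma-voom with sample quality weights gave 1.42 (adjusted p = 0.369).

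Dlk1, the paternally expressed gene 77.7 kb away that shares the control region of Meg3, stood at 0.806, 0.840, 2.62, 4.62 and 1.31 CPM in EV mice 1 to 5, and the values of sgZrsr2 mice 1, 2, 3 and 5 were 1.113, 3.80, 0.681 and 1.03 CPM. Within EV both genes were highest in mouse 4 and next highest in mouse 3. In sgZrsr2 mouse 2 Dlk1 was high while Meg3 was not. EV mice 3 and 4 were not among the libraries with Car1, and their S100a9 was at 13.7 and 11.3 CPM. Markers of stroma and endothelium, cells in which H19, Igf2 and Meg3 are known to be read, were at mixed levels: of the 12 listed, Col3a1 had no count in any library and Col1a1, Lepr, Pdgfra, Acta2 and Dcn stayed at or below 0.365 CPM. Emcn reached 5.67 CPM, Cdh5 4.05, Kdr 3.14, Cxcl12 1.48 and Col1a2 0.974 CPM. The list summed to 73.6 to 109 CPM with EV and 92.1 to 114 CPM with sgZrsr2, mostly Pdgfrb. In EV mouse 4, where Meg3 was highest, the sum was 83.7 CPM, and in EV mouse 3, where Meg3 was next highest, it was 109 CPM, the highest of the EV group. The part of these cells in the level of Meg3 was not tested.

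The 250 bases before the first RefSeq start of Meg3 and the start of Plagl1 are shown because they hold the hexamer TGCCGC, the sequence that the imprint-keeping protein Zfp57 binds when its CG is methylated. Matches on either strand are in capitals, so the complementary strand reads GCGGCA (GRCm38.p6, plus strand, 5′ to 3′).
Meg3, chr12:109540746-109540995: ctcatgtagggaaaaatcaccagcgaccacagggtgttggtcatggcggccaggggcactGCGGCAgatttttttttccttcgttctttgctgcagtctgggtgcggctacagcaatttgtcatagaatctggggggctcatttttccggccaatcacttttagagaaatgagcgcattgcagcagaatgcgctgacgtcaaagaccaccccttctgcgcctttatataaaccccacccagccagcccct
Plagl1, chr10:13090582-13090831: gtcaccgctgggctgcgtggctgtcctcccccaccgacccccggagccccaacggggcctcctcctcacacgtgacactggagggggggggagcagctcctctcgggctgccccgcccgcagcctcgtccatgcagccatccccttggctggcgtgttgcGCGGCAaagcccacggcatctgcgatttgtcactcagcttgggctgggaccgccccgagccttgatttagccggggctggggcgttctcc
RefSeq held 12 such windows for 7 of the 10 genes, and these were the 2 with a match. The hexamer is in 8.68% of all 32851 windows, and a match is a description of the sequence only. Zfp57 itself was at 3.84 to 7.48 CPM with EV and 4.36 to 9.24 CPM with sgZrsr2.

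Impact (ENSMUSG00000024423; chromosome 18, 12972252 to 12992948, plus strand) encodes a protein that binds Gcn1 and so restrains the kinase Gcn2, a sensor of amino acid shortage. It stood at 33.9, 33.1, 39.6, 29.3 and 29.1 CPM in EV mice 1 to 5, and the values of sgZrsr2 mice 1, 2, 3 and 5 were 32.4, 38.5, 39.6 and 33.9 CPM. The highest library was 1.36 times the lowest, and neither the libraries with Car1 nor the groups stood apart. The means were 33.0 ± 4.26 CPM (SD, n = 5) and 36.1 ± 3.50 CPM (SD, n = 4; exact permutation p = 0.317), with a log2 fold change of 0.13 (SE 0.13; edgeR adjusted p = 0.805). Of its partners, Gcn1 (Gcn1l1 in the table), Gcn2 (Eif2ak4), Eif2s1 and Atf4 were all tested and 0 of the 4 passed an unadjusted p of 0.05, which 6.85% of all genes did, so little can be read from so few. Gcn1l1 was at 249 ± 26.3 CPM in EV libraries (SD, n = 5) against 239 ± 31.8 in sgZrsr2 libraries (SD, n = 4), Eif2s1 at 159 ± 38.9 and 127 ± 29.5 CPM and Atf4 at 419 ± 157 and 337 ± 69.7 CPM. The genes most like Impact over the 9 libraries were Clcn4-2, Slc35e2 and Bsdc1 (Pearson r 0.924, 0.917 and 0.913, and 0.911, 0.958 and 0.859 over the 6 libraries without Car1), with the limits given for Grb10.

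The 6 tested genes also differed widely in their variation between libraries. The highest library exceeded the lowest 44.4 times for Ndn, 21.1 times for Meg3, 8.74 times for Igf2r, 4.50 times for Grb10 and 2.52 times for Cdkn1c, against 1.36 times for Impact. For Ndn and Meg3 the lowest library rests on 1 and 6 counts, so these ratios are imprecise. The biological coefficient of variation in edgeR, which sets counting error aside, was 83.3% for Ndn, 81.2% for Meg3, 64.3% for Igf2r, 46.4% for Grb10, 37.6% for Cdkn1c and 16.3% for Impact, and its median over all genes tested was 24.1%. Among the genes of the same decile of abundance (1494 or 1495 genes), Ndn, Igf2r, Meg3 and Grb10 stood above 94.0%, 92.2%, 92.9% and 91.1% of them. Cdkn1c stood above 49.9% and Impact above 13.3%. EV mouse 5 was the highest library for 3 of the 6 genes and sgZrsr2 mouse 3 for 2.

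**Figure D4:**
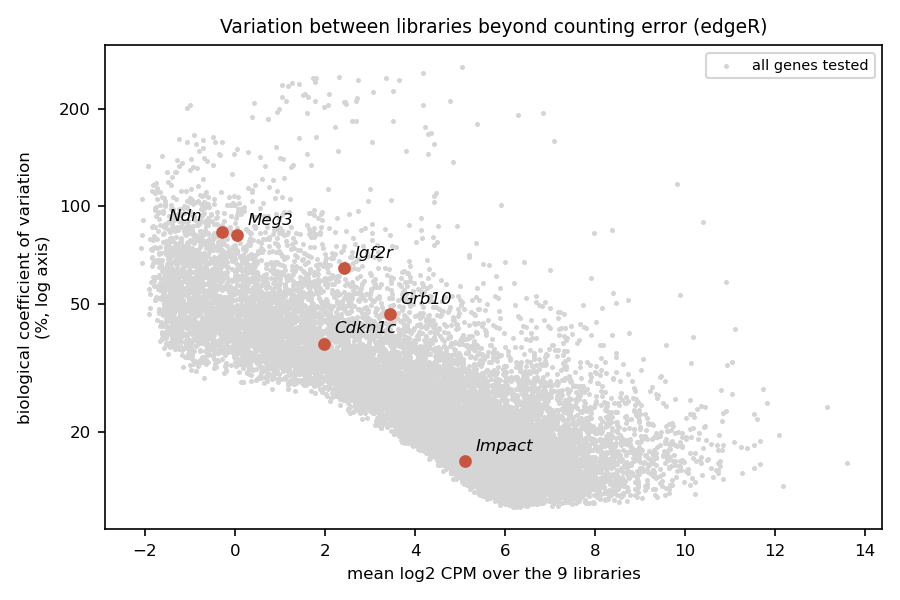
Biological coefficient of variation (log axis) against mean log2 CPM for the 14944 genes tested (grey), with the 6 imprinted genes in red. Within their deciles of abundance, Ndn, Meg3, Igf2r and Grb10 lie above 91.1% to 94.0% of the genes. Cdkn1c lies in the middle and Impact, at 16.3%, in the lower part.

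The neighbours of each gene are given by locus in CPM, which is not per length and so gives no order between genes. Within the chromosome 17 domain, Slc22a3 was at 86.2 to 176 CPM and Slc22a2 had no count. In the chromosome 7 domain of Cdkn1c, Nap1l4 (149 to 217 CPM), Cd81 (60.3 to 98.8), Tspan32 (38.6 to 92.7) and Tssc4 (43.2 to 57.8) were read in every library, and Kcnq1 had at most 2 counts. Near Ndn, Magel2 had no count and Peg12 was at 4.73 to 7.56 CPM. Imprinting of several of these neighbours is known only from other tissues.

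**Figure D5:**
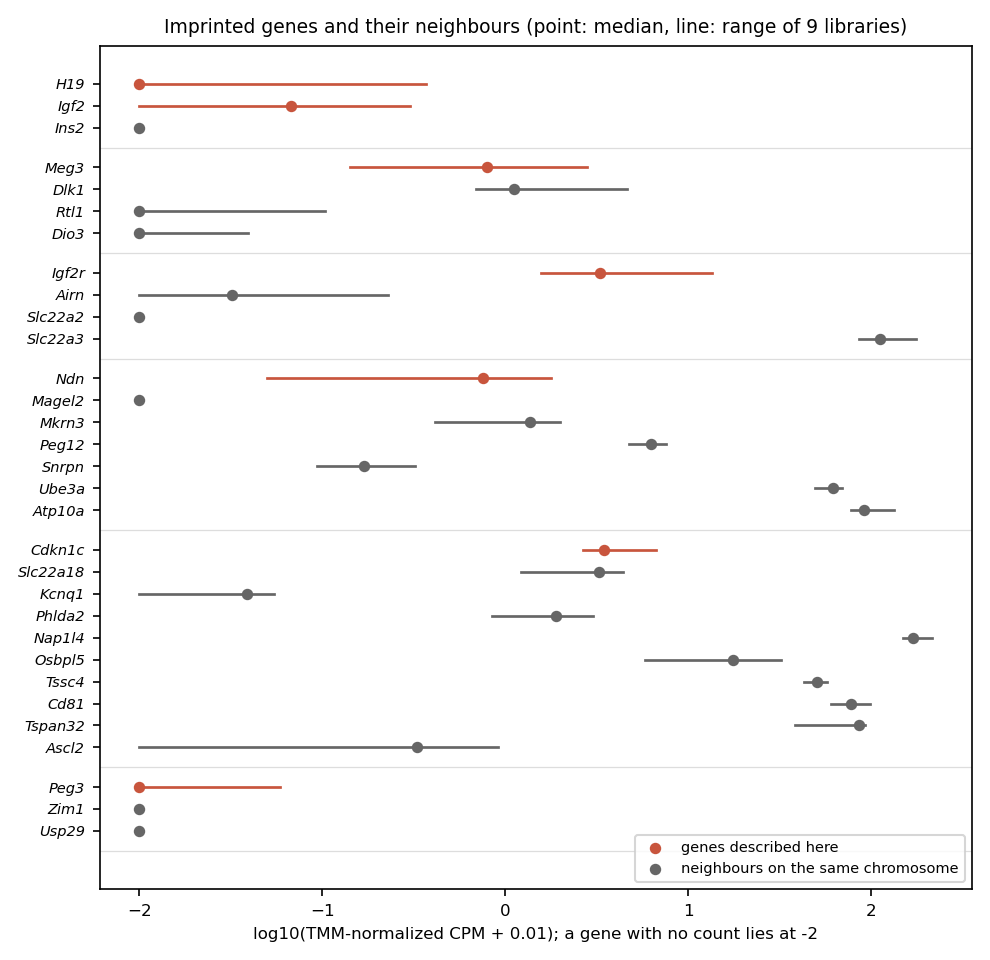
Imprinted genes (red) and neighbours on the same chromosome (grey), grouped by locus, with the median (point) and range (line) over 9 libraries as log10 of TMM-normalized CPM plus 0.01. The neighbours of Peg3 had no count, whereas Slc22a3 near Igf2r and Nap1l4 near Cdkn1c were read in every library; CPM is not per length.

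Of 55 further imprinted genes listed, 51 were found and 29 were tested; 0 passed the adjusted threshold of edgeR's test, as in 0% of all genes. Of the 26 paternally expressed ones 24 were found and 11 tested, with 6 fold changes above 0 and 5 below, a median of 0.14 on the log2 scale and 0 genes at an unadjusted p under 0.05. Of the 29 maternally expressed ones 27 were found and 18 tested, with 9 above 0 and 9 below, a median of -0.01 and 2 genes at an unadjusted p under 0.05 (6.85% of all genes were). These were Commd1, at 46.7 ± 7.12 CPM in EV libraries (SD, n = 5) against 35.8 ± 4.08 in sgZrsr2 libraries (SD, n = 4), and Trappc9, at 39.96 ± 4.93 and 47.8 ± 3.49 CPM. Their log2 fold changes were -0.38 (SE 0.14) and 0.26 (SE 0.12), with an edgeR adjusted p of 0.714 for each and groups that overlapped. Nap1l4 followed with -0.22 (SE 0.10). As for the neighbours above, imprinting of several of the listed genes is known only from other tissues. The paternally expressed gene inside Commd1 is Zrsr1, the paralog of Zrsr2. Strandedness is not given, so whether reads of either gene were counted for the other is not known. Zrsr1 was at 11.9 to 17.4 CPM with EV and at 15.4 to 31.3 CPM with sgZrsr2, where mouse 3 was highest. Its log2 fold change of 0.38 (SE 0.22, edgeR adjusted p = 0.720) was 0.09 without sgZrsr2 mouse 3. Mkrn3 (0.44, SE 0.46) and Inpp5f (0.14, SE 0.17) came next among the paternally expressed genes.

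Genes of imprint upkeep and of DNA methylation more widely were well represented. Their list also held Tet1, Tet2 and Tet3, which act in the removal of DNA methylation, so its counts do not describe imprint keeping alone. Of 19 listed genes 16 were tested, with 10 fold changes above 0 and 6 below and a median of 0.07 on the log2 scale; 1 was at an unadjusted p under 0.05, a share near the 6.85% of all genes, and 0 passed the adjusted threshold. That gene was Zfp445, a zinc finger protein that guards imprints in the early embryo. It stood at 58.0, 51.0, 37.2, 44.4 and 58.1 CPM in EV mice 1 to 5, and the values of sgZrsr2 mice 1, 2, 3 and 5 were 65.3, 69.6, 62.1 and 60.6 CPM. All sgZrsr2 libraries were above all EV libraries, as groups were apart in 3.06% of all genes (log2 fold change 0.37, SE 0.14; edgeR adjusted p = 0.714; exact permutation p = 0.0159). Trim28, the corepressor that Zfp57 and Zfp445 recruit, was at 808 ± 67.9 CPM in EV libraries (SD, n = 5) against 709 ± 42.8 in sgZrsr2 libraries (SD, n = 4), with overlapping groups (log2 fold change -0.19, SE 0.10). Arid4a was at 81.7 ± 18.8 and 110 ± 29.1 CPM (0.43, SE 0.20).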

How the data were processed

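The values are gene-level RSEM expected counts, deposited by the authors without normalization, 1 column per mouse. RSEM 1.2.30, cutadapt 1.11 and the build GRCm38 are named in the submitters' processing notes; the aligner, annotation and strandedness are not given in the sources used here. Libraries were made from 5 ng of RNA after selection of polyadenylated RNA and amplified by PCR, per the labels' protocols, and intervals on counts cover counting error only.

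Counts were rounded. filterByExpr (minimum count 10, total 15) kept 14944 genes with 99.93% of the counts, and TMM factors ran from 0.894 to 1.07. Groups were compared with edgeR 4.0.16 (glmQLFit, glmQLFTest) in R 4.3.3 with Benjamini-Hochberg adjustment over all genes tested; SEs are the log2 fold change over the square root of F. The fit was tested on simulated counts. Single values were compared by exact permutation in scipy 1.17.1. The alternatives were other scaling factors and filters, DESeq2 1.42.0, limma-voom (limma 3.58.1), counts not rounded, a mouse-number block, and libraries left out or summed.

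The members and lists were chosen with earlier results of these data known. The text names all 10 members, the 3 genes of smallest p in each pathway list, Zrsr1, Zrsr2, the 3 genes most like each member with a mean of at least 10 CPM, and locus neighbours and Zfp57, which were added after the values were seen. Gene positions are those of the table, on GRCm38. Of the listed imprinted genes Rian, Mirg, Kcnq1ot1 and Peg13 were not matched by symbol.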

Additional observations from a re-analysis of the deposited data

Results flagged for a closer look

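In all, 5 values stood far from the rest of their group, by the gap to the nearest library over the range of the group. They came from 19 sets of values (10 genes in 2 groups, less 1 set with no count at all), and for continuous values chance would flag about 0.95 of them. That figure does not apply to H19 in both groups and Peg3 in the sgZrsr2 group, where every other library was at 0 and the gap is the whole range by construction. Grb10 in EV mouse 5 was at 25.0 CPM on 858 counts, and the next EV library was at 9.26 CPM. Igf2r in sgZrsr2 mouse 3 was at 10.02 CPM on 412 counts, and the next sgZrsr2 library was at 3.31 CPM. H19 was at 0.175 CPM in EV mouse 5 (6 counts) and at 0.362 CPM in sgZrsr2 mouse 5 (13 counts), with no count in the rest of either group. Peg3 was at 0.0487 CPM in sgZrsr2 mouse 3, on 2 counts that lie under the limit of 3 counts that a count of 0 allows.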

How the results depend on the processing

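No alternative called any of the 6 tested imprinted genes (lowest adjusted p 0.363, Ndn). Over all genes the count past the threshold rose from 0 to 16 under DESeq2 and to 1 with sgZrsr2 mice 1 and 2 summed, and was 0 in each fit without 1 library; the cause was not tested. Genes at an unadjusted p under 0.05 numbered 1024, but 2551 under limma-voom with quality weights, 1692 without EV mouse 5 and sgZrsr2 mice 3 and 5, 609 without EV mouse 4 and 333 with the replicate block. Signs changed, at values no test called, under limma-voom for Meg3 (1.42), Grb10 (0.21) and Atf4 (0.0177); with the replicate block for Meg3 (0.52), Cdkn1c (-0.0184) and Grb10 (0.0411); with sgZrsr2 mice 1 and 2 summed for Grb10 (0.0455); and without EV mouse 5 and sgZrsr2 mice 3 and 5 for Ndn (0.19). Without 1 library the log2 fold change ran from -0.74 to 0.26 for Meg3, -0.20 to 0.31 for Cdkn1c, -0.26 to 0.46 for Grb10, -0.81 to 0.18 for Ndn, -1.10 to 0.22 for Igf2r, 0.08 to 0.20 for Impact and -0.00399 to 0.24 for Inpp5f. No pairing of the groups by mouse number is stated in the labels or was shown: deviations of same-numbered libraries correlated at -0.23, -0.09, -0.40 and 0.37. So few values cannot exclude a pairing. Impact kept its direction in all alternatives. Ndn was not tested under the filter of at least 1 CPM in 4 libraries.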
